A study of Mus musculus with 10 samples.

Results

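The genes described here encode the ligands and receptors of axon guidance: ephrins and Eph receptors, semaphorins with their plexin and neuropilin receptors, Slits and Robo receptors, and netrins with the Unc5 family, Dcc and Neo1. The rule that picks them reads only gene symbols, by the family names Eph, Efn, Sema, Plxn, Plxdc, Nrp, Robo, Slit, Ntn, Ntng, Unc5, Dcc and Neo1. The rule found 73 genes among the 19213 rows of the table. All 73 are annotated as protein coding in GENCODE M21.

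RNA was sequenced from endocrine cells that had been sorted by fluorescence out of the islets of adult transgenic mice. Delta cells, the somatostatin cells, gave 2 libraries (1 male, 1 female), alpha cells, the glucagon cells, gave 3 (2 male, 1 female), and beta cells, the insulin cells, gave 5 (2 male, 3 female). All animals carried the beta cell reporter mIns1-H2b-mCherry and a floxed YFP allele. YFP was switched on by Sst-Cre in the animals used for delta cells and by Gcg-cre in those used for alpha cells, so a delta or alpha cell is here a YFP-positive cell with a history of Sst or Gcg promoter activity, and a beta cell is an mCherry-positive one. Islets of 10 to 12 animals of 1 sex were pooled, kept overnight in medium with 5.5 mM glucose and dissociated before sorting. The titles number the libraries, and 4 YFP libraries stand next in number to an mCherry library of the same sex (both delta libraries and alpha replicates 2 and 3, beside beta replicates 1, 2, 3 and 5). The labels do not say what these numbers mark, nor whether neighbours came from the same islets or every library had its own pool of animals. The p-values therefore speak of library-to-library variation, some of which may be technical.

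Axon guidance molecules are surface and secreted proteins first known for steering growing nerve fibres by attraction or repulsion, and they also act between cells that touch or lie close together outside the nervous system. Ephrins sit in the membrane of a cell and bind Eph receptor tyrosine kinases on its neighbour, and both sides signal. Semaphorins bind plexins, with neuropilins as co-receptors for most of the secreted ones; Slits bind Robo receptors; and netrins bind Dcc, Neo1 and the Unc5 receptors. In mouse islets, contact between beta cells through ephrin-A and EphA has been linked to insulin release, and Robo receptors to the arrangement of endocrine cells within the islet.

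The sequences shown here are stretches of 250 bases that end at the RefSeq transcription start of a gene, on the strand of that gene, for members whose transcripts were highest in different cell types: Efna5 and Epha8 in delta cells, Ntn4 in alpha cells and Robo1 in beta cells. Capitals mark matches on either strand to the GC box GGGCGG. The RefSeq table, on GRCm38.p6, matched 61 of the 73 members, with 77 promoters, and none of the 4 windows printed overlaps an exon in GENCODE M21.
Efna5, chr17:62881318-62881567, minus strand: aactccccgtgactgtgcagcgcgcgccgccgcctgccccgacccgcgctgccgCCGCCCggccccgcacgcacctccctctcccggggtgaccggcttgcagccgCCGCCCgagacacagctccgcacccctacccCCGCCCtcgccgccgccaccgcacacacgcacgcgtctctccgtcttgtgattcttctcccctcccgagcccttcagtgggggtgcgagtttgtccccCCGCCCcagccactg
Epha8, chr4:136956817-136957066, minus strand: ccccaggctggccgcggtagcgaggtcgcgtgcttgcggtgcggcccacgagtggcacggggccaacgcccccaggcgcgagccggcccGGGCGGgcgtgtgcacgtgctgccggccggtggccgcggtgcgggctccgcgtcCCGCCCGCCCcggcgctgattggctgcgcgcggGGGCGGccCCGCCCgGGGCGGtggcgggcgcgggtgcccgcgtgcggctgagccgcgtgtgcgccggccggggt
Ntn4, chr10:93640799-93641048, plus strand: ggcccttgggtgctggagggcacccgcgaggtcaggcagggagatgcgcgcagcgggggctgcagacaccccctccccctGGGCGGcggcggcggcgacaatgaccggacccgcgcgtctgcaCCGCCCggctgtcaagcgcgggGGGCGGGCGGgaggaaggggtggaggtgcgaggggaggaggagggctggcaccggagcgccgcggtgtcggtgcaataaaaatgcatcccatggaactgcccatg
Robo1, chr16:72662899-72663148, plus strand: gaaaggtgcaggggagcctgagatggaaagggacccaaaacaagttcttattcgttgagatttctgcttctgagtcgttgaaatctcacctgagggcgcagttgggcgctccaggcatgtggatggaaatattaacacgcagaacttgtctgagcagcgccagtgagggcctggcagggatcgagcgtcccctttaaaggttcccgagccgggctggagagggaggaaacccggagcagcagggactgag
GGGCGG occurred 4 times before Efna5, 6 times before Epha8, 4 times before Ntn4 and not before Robo1, counting overlapping matches and both strands. It occurred in 54 of the 77 promoters of members and in 32.7% of all 32851 promoters of that length. G and C made up 74.8% of the Efna5 window, 84.0% of the Epha8 window, 73.2% of the Ntn4 window and 56.0% of the Robo1 window, against a median of 64.4% for members and 52.4% for all promoters. The E-boxes CAGATG and CAGCTG, the homeodomain core TAATTA and the cyclic AMP response element TGACGTCA were searched for in the same way and were in none of the 4 windows. Among the 77 promoters of members they were in 5, 11, 3 and 1, and among all promoters in 14.4%, 13.0%, 4.84% and 1.55%, in the order in which they are named. The Ntn4 and Robo1 windows lie within the spans of their GENCODE gene models, before RefSeq starts inside them.

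Levels are RPKM as the authors deposited them, that is read numbers divided by gene length in kilobases and by library size. Library totals recovered from the steps of the values were 16688097 to 26684086 reads, which makes 1 RPKM worth 16.7 to 26.7 reads for each kilobase of a gene. A gene was tested where it reached 1 RPKM in at least 2 libraries, which 12700 genes did, and differences are log2 fold changes of RPKM + 1, which understate the change of low genes. A gene was called at a limma p under 0.05 after Benjamini-Hochberg adjustment over all genes tested. RPKM are shares of a library, and 7 hormone genes took 9.81% and 10.6% of the reads of the delta libraries, 27.5% to 30.9% in alpha and 17.6% to 31.8% in beta libraries. Sst, the hormone gene of delta cells, had 1079.7 to 2937 RPKM in alpha libraries, 3.23% of its delta mean. Gcg, the hormone gene of alpha cells, had 21254 and 23233 RPKM in delta libraries, 8.72% of its alpha mean. The values come from whole sorts, so fewer cells that carry a transcript and less of it in each cell cannot be told apart.

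Most of the axon guidance genes abundant enough to be tested were higher in delta cells than in beta cells. Of the 73 members, 39 passed the filter, 32 were under 1 RPKM in every library and 2 reached it in 1 library only. Of the 39 tested, 29 (74.4%) were called higher in delta over beta and 3 (7.69%) lower, where 37.4% and 13.3% of all tested genes were. In alpha against beta cells 19 were higher and 3 lower, where 23.7% and 30.3% of all tested genes were. In delta against alpha cells 23 were higher and 7 lower, where 32.1% and 5.89% of all tested genes were. The comparisons share libraries, so these are not independent counts. Epha1, Epha2, Epha8, Nrp2 and Unc5d reached 1 RPKM only in delta libraries and so had to be high there to be tested. Efnb2, Efnb3, Nrp1, Sema4f, Sema4g and Sema6a reached it only in delta and alpha libraries, and Ephb6 only in alpha libraries. They too were tested only through the cell types where they were high. Without a filter, all 73 members entered the fit. In delta over beta 43 were then called higher and 4 lower, where 27.4% and 10.2% of all 19213 genes were. In alpha over beta it was 24 and 5, where 19.0% and 22.2% of all genes were, and in delta over alpha 34 and 8, where 23.0% and 5.15% were. Large changes, called and of at least 1.5 on the log2 scale, were seen for 12 members higher and 1 lower in delta over beta (5.52% and 2.06% of all tested genes). In alpha over beta there were 6 and 2 of them (3.18% and 3.62%), and in delta over alpha 8 and 1 (4.59% and 1.47%).

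The median log2 fold change of the 39 members was 0.92 in delta over beta, 0.30 in alpha over beta and 0.58 in delta over alpha, beside 0.25, -0.02 and 0.26 over all genes tested. Scaling the libraries by median ratios moved the median of all genes to -0.01 in delta over alpha, and the members' median there was then 0.29, and 0.75 in delta over beta. On that scale 25 of 38 members were called higher and 3 lower in delta over beta, where 24.2% and 24.5% of all genes were. In alpha over beta 21 were higher and 5 lower (27.9% and 29.1% of all genes), and in delta over alpha 14 were higher and 8 lower (14.3% and 10.5%). With only 2 delta libraries the counts also leaned on each of them. Fewer members were called higher over beta and over alpha cells when either was left out. The share of all genes called in those fits was not counted, so the fall is not shown to be particular to the members.

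Sorted by pattern, 21 members were higher in delta than in both other cell types, a pattern that 16.6% of all genes tested had. They were the ephrins Efna2, Efna5, Efnb1 and Efnb3, the receptors Epha1, Epha2, Epha8 and Ephb2, the semaphorins Sema3c, Sema3e, Sema4a, Sema4b, Sema4c, Sema4g and Sema6a, the plexins Plxna3 and Plxnb1, Nrp2, and Unc5a, Unc5c and Unc5d. Of these 21, Epha1, Epha2, Epha8, Nrp2 and Unc5d reached 1 RPKM only in delta libraries and so had to be high there to be tested. After median-ratio scaling the delta over alpha call was lost for Efna2, Efnb1, Epha2, Sema3e, Sema4a, Sema4c and Unc5a. The delta over beta call was then lost for Efna2 and Sema4b. Efnb2, Epha7, Ephb6, Ntn4 and Sema4f, 5 in number, were higher in alpha than in both others (4.14% of all genes). Of these, Ephb6 reached 1 RPKM only in alpha libraries and so had to be high there to be tested. Robo1 alone was higher in beta than in both others (11.4%). Ephb6, Robo1 and Robo2 were lower in delta than in both others (1.87%), and Plxnb2 and Unc5b were lower in alpha (16.6%). The number lower in beta than in both others was 17 (18.2%). Among them Efnb2, Efnb3, Nrp1, Sema4f, Sema4g and Sema6a reached 1 RPKM in no beta library. These had to be high in delta or alpha cells to be tested. Neo1, Plxna2, Sema4d and Sema7a, 4 in number, were called in no cell type contrast (26.0%). Across the 73 members, the rank order of levels was closer within a cell type than between types, with Spearman correlations over genes of 0.946 to 0.985 for the 14 pairs of libraries of 1 type and 0.728 to 0.884 for the other 31 pairs.

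**Figure D1:**
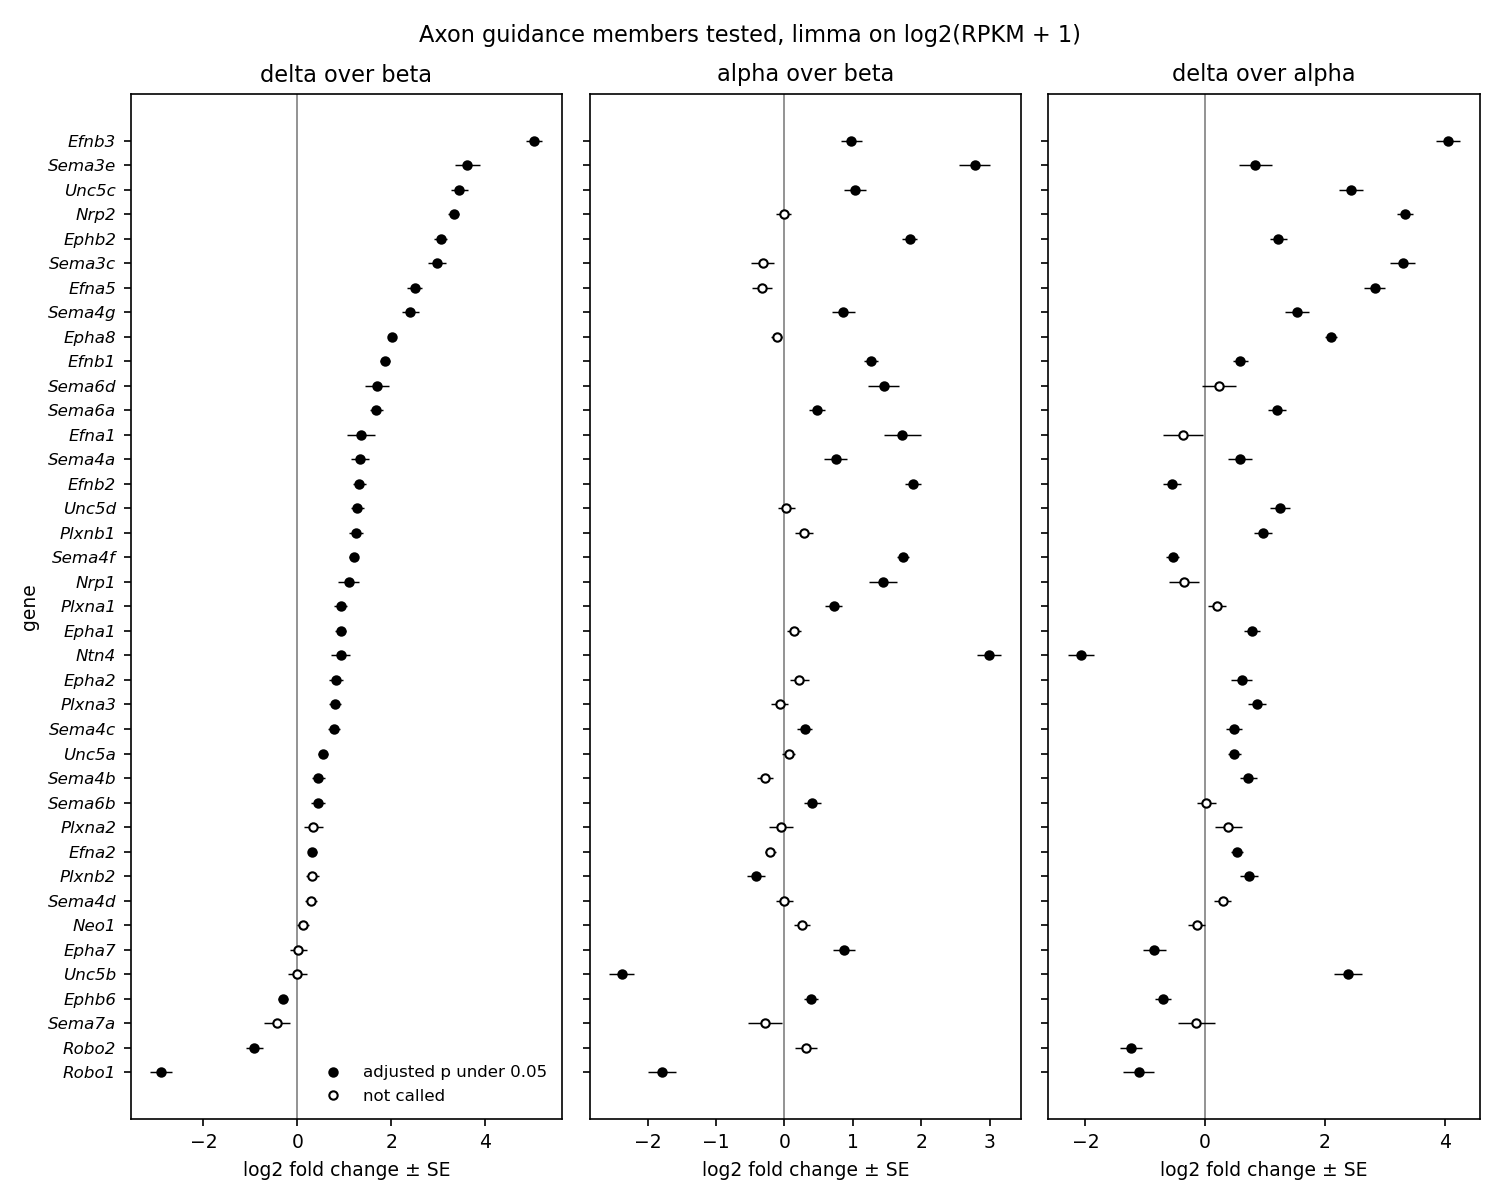
Log2 fold changes of RPKM + 1 (horizontal axis) of the 39 tested members (rows, sorted by delta over beta) in delta over beta, alpha over beta and delta over alpha. Bars are standard errors and filled points are called at an adjusted p under 0.05. Efnb3 stands at 5.04 at the top of the delta over beta panel and Robo1 at -2.90 at the bottom.

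Ephrins are the ligands of Eph receptors, with the A ephrins held in the membrane by a lipid anchor and the B ephrins crossing it. Their summed level was 111 ± 7.42 RPKM in delta, 38.1 ± 3.78 in alpha and 15.6 ± 2.21 in beta libraries (SD; n = 2, 3 and 5). Of 8 ephrin genes, 6 were tested, and all 6 were called higher in delta over beta, where 37.4% of all tested genes were. With median-ratio scaling 5 of the 6 were called higher, where 24.2% of all genes were, and likewise 5 with hormone reads left out of the library totals. For the fit without hormone reads the share of all genes was not counted. The call lost in both was that of Efna2. Efnb3 made up 42.5% of the sum in delta cells, and Efnb1 led in alpha (38.1%) and beta cells (35.0%).

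Efnb3 (chr11:69554092-69560205, minus strand) encodes ephrin-B3, known in the nervous system as a repellent at the midline of the spinal cord. It had 41.2 and 53.2 RPKM in the delta libraries. It had 2.12, 1.60 and 1.77 RPKM in the alpha libraries and 0.190, 0.267, 0.596, 0.522 and 0.874 RPKM in beta replicates 1 to 5. No values overlapped between the cell types. The log2 fold change was 5.04 (SE 0.18, adjusted p = 8.76e-08) in delta over beta, 4.06 (SE 0.20, adjusted p = 9.64e-07) in delta over alpha and 0.98 (SE 0.16, adjusted p = 0.000932) in alpha over beta. Its alpha mean was 3.88% of its delta mean, near the 3.23% of Sst. Once the delta transcripts implied by Sst were subtracted from each alpha library, the alpha over beta change was -0.03 (limma, adjusted p = 0.9). That subtraction takes all Sst in alpha libraries as delta transcripts and leaves the beta libraries unchanged. Its beta mean was 1.04% of its delta mean, where that of Sst was 0.746%, with Sst at 99.6, 200, 353, 535 and 922 RPKM in beta replicates 1 to 5. The part of Sst-expressing cells in the beta values of Efnb3 was not tested, and that in its alpha values was not otherwise tested.

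Efna5 (chr17:62604184-62881317, minus strand), whose protein ephrin-A5 binds EphA receptors, had 26.3 and 27.0 RPKM in the delta libraries. It had 2.94, 2.70 and 2.83 RPKM in alpha libraries and 3.0, 3.28, 3.81, 5.25 and 4.67 RPKM in beta libraries. The delta values stood apart, and the change was 2.50 (SE 0.16, adjusted p = 2.68e-06) over beta and 2.83 (SE 0.18, adjusted p = 3.44e-06) over alpha. Alpha and beta levels were not called different (-0.33, adjusted p = 0.0842).

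Efnb1 (chrX:99136130-99148991, plus strand), encoding ephrin-B1, fell into 3 steps. It had 21.3 and 23.7 RPKM in delta, 15.3, 15.2 and 13.0 in alpha and 5.01, 5.75, 5.19, 5.24 and 6.18 in beta libraries. It was higher in delta than in beta cells by 1.86 (SE 0.11, adjusted p = 1.76e-06) and in alpha than in beta cells by 1.27 (SE 0.10, adjusted p = 9.05e-06). The smaller step of delta over alpha, 0.59 (SE 0.12, adjusted p = 0.00503), was not called after median-ratio scaling, with hormone reads left out of the library totals or without delta replicate 2.

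Efnb2 and Efna1 had their highest means in alpha cells. Efnb2 (chr8:8617434-8661242, minus strand), encoding ephrin-B2, which is also a marker of arterial endothelium, had 1.72 and 2.13 RPKM in delta libraries. It had 3.77, 3.46 and 2.76 RPKM in alpha libraries and 0.0795, 0.0758, 0.196, 0.159 and 0.338 RPKM in beta libraries. Alpha over beta was 1.88 (SE 0.12, adjusted p = 2.63e-06) and delta over alpha was -0.56 (SE 0.15, adjusted p = 0.0164), the second not called with a pseudocount of 0.1, without delta replicate 1 or by limma-voom on recovered reads. Efna1 (chr3:89271733-89281142, minus strand), encoding ephrin-A1, had 11.9 and 7.61 RPKM in delta, 9.85, 17.5 and 13.6 in alpha and 3.18, 1.55, 5.42, 2.33 and 3.56 in beta libraries. It was higher than in beta cells both in delta (1.35, SE 0.30, adjusted p = 0.00504) and in alpha cells (1.72, SE 0.27, adjusted p = 0.000581), and its delta and alpha libraries overlapped. The delta over beta call was lost without delta replicate 1. Efna2 averaged 3.01 ± 0.470 RPKM in delta, 1.80 ± 0.119 in alpha and 2.16 ± 0.196 in beta libraries. Efna3 and Efna4 had at most 0.184 RPKM in any library.

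**Figure D2:**
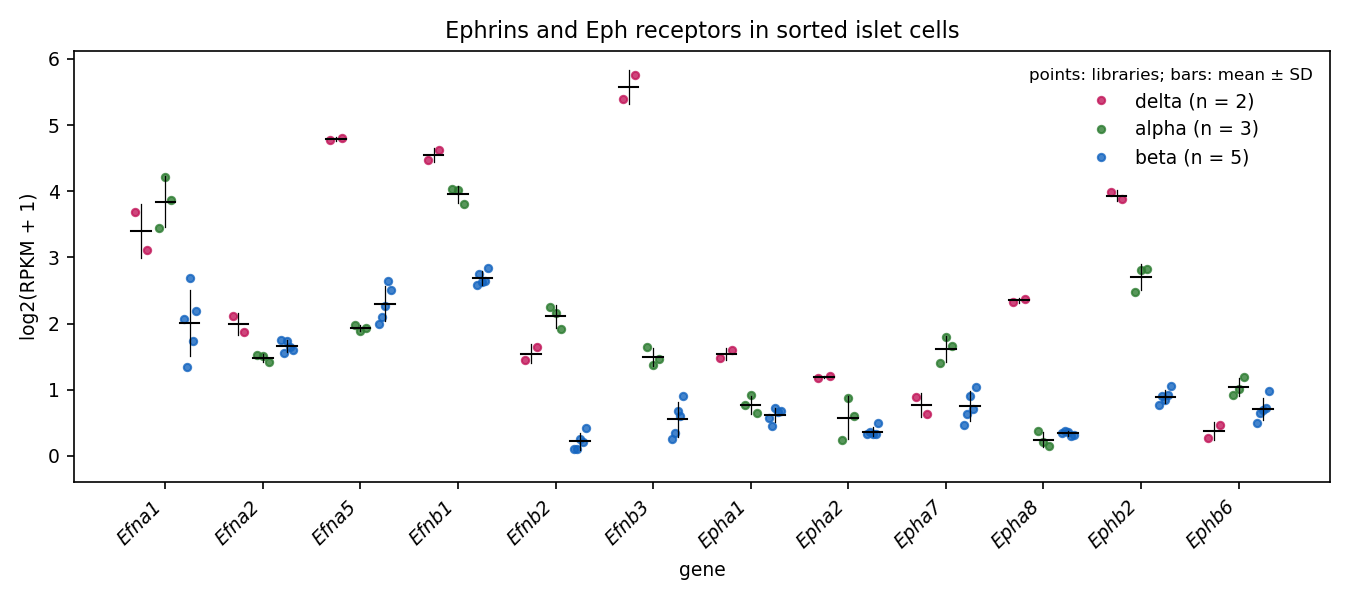
Levels of the 6 ephrin and 6 Eph receptor genes that were tested, as log2(RPKM + 1) per library (points), with the mean and SD of the delta (n = 2), alpha (n = 3) and beta (n = 5) libraries. Efnb3 and Efna5 are highest in delta libraries, while Efnb2 and Epha7 are highest in alpha libraries.

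Eph receptors are the tyrosine kinases that ephrins bind, and their summed level followed the same order, with 23.7 ± 0.421 RPKM in delta, 10.9 ± 1.98 in alpha and 3.55 ± 0.798 in beta libraries. Ephb2, a receptor of B ephrins, made up 60.4% of the delta sum. Of 13 receptor genes only 6 were tested. In delta over beta 4 were called higher and 1 lower, where 37.4% and 13.3% of all tested genes were. Of the 4, Epha1, Epha2 and Epha8 reached 1 RPKM only in delta libraries and so had to be high there to be tested. Ephb6, the 1 called lower, reached it only in alpha libraries.

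Ephb2 (chr4:136647539-136835988, minus strand) had 14.9 and 13.7 RPKM in delta, 4.54, 6.04 and 6.06 in alpha and 0.707, 0.868, 0.788, 0.895 and 1.07 in beta libraries. The 3 cell types did not overlap. It was higher in delta than in beta cells by 3.05 (SE 0.13, adjusted p = 1.94e-07) and than in alpha cells by 1.22 (SE 0.14, adjusted p = 0.000156), and in alpha than in beta cells by 1.83 (SE 0.11, adjusted p = 1.97e-06).

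Epha8 (chr4:136929419-136956816, minus strand), a receptor of A ephrins, reached 4.02 and 4.19 RPKM in delta libraries. Its levels were 0.292, 0.163 and 0.109 RPKM in alpha and 0.275, 0.304, 0.287, 0.228 and 0.239 RPKM in beta libraries, which overlap each other. Delta over beta was 2.01 (SE 0.09, adjusted p = 3.38e-07) and delta over alpha 2.11 (SE 0.10, adjusted p = 9.17e-07). Epha1 and Epha2 were higher in delta cells by less, with log2 fold changes over beta of 0.92 and 0.83. Exons of Epha1 overlap those of Zyx on the other strand, and the library kit does not mark the strand, so reads of these genes cannot be fully told apart. In all, exons of 18 members overlap those of another gene, among them Unc5a, Unc5c, Plxna1, Plxnb1 and Sema4c with genes of the other strand.

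Epha7 (chr4:28813131-28967499, plus strand) was the most abundant EphA transcript of alpha cells. It had 0.861 and 0.553 RPKM in delta, 1.64, 2.46 and 2.17 in alpha and 0.382, 0.548, 0.875, 0.631 and 1.05 in beta libraries. Alpha over beta was 0.87 (SE 0.16, adjusted p = 0.0015) and delta over alpha -0.85 (SE 0.19, adjusted p = 0.00762), while delta and beta libraries overlapped. The delta over alpha call was lost without delta replicate 2. Ephb6, which encodes an Eph receptor without kinase activity, had 0.211 and 0.387 RPKM in delta, 0.892 to 1.28 in alpha and 0.416 to 0.967 in beta libraries, lowest in delta cells. Its delta over beta change of -0.31 (adjusted p = 0.045) was not called in 8 of 17 alternative fits.

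Receptors named in earlier work on islets were scarce. Epha5, the partner of ephrin-A5 in mouse beta cells, had 0.00636 and 0.0208 RPKM in delta, 0.0380 to 0.0924 in alpha and 0 to 0.0674 in beta libraries, at most 14 reads in a library. Epha4 had 0.149 and 0.281 RPKM in delta, 0.0379 to 0.109 in alpha and 0 to 0.0178 in beta libraries. Epha3 had no read in any beta library, where 3 reads stand for 0.0287 to 0.046 RPKM over the 10 libraries. Ephb1 had 2 reads over all 10 libraries. Epha10, Ephb3 and Ephb4 also stayed under 1 RPKM; Ephb3, a receptor of B ephrins, had 0.669 and 0.663 RPKM in delta, 0.159 to 0.678 in alpha and 0.0592 to 0.136 in beta libraries.

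Semaphorins are secreted or membrane-bound ligands of plexins. Their summed level was 118 ± 1.51 RPKM in delta, 66.1 ± 9.55 in alpha and 42.5 ± 4.56 in beta libraries. Of 20 genes, 12 were tested. In delta against beta cells 10 were higher and 0 lower by limma, where 37.4% and 13.3% of all tested genes were. Every tested semaphorin other than Sema4d and Sema7a was called in that contrast. After median-ratio scaling 8 were higher and 0 lower, where 24.2% and 24.5% of all genes were. With hormone reads left out of the library totals 13 were tested, and 8 were higher and 1 lower. The share of all genes was not counted for that fit.

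Sema3c (chr5:17574281-17730268, plus strand), a secreted semaphorin that signals through neuropilins and plexins, had 14.7 and 16.6 RPKM in delta libraries. It had 0.701, 0.741 and 0.590 RPKM in alpha and 0.716, 0.777, 1.34, 1.15 and 1.82 RPKM in beta libraries. Only the delta libraries stood apart, by 2.98 (SE 0.19, adjusted p = 2.30e-06) over beta and 3.30 (SE 0.21, adjusted p = 3.34e-06) over alpha.

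Sema3e (chr5:14025276-14256689, plus strand), a secreted semaphorin that can bind plexin D1 without a neuropilin, was shared by delta and alpha cells. It had 19.8 and 17.6 RPKM in delta, 7.80, 11.9 and 10.2 in alpha and 0.178, 0.310, 0.706, 0.765 and 1.37 in beta libraries. Delta over beta was 3.62 (SE 0.26, adjusted p = 4.57e-06) and alpha over beta 2.78 (SE 0.23, adjusted p = 1.11e-05). Delta over alpha was 0.84 (SE 0.28, adjusted p = 0.0415), a call that 11 of 21 alternative fits did not keep. Plxnd1, the gene of its receptor, had 0.172 and 0.156 RPKM in delta, 0.130 to 0.465 in alpha and 0.268 to 0.597 in beta libraries.

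Among the membrane-bound semaphorins, Sema4a (chr3:88435959-88461182, minus strand) was the most abundant in delta and alpha cells. It had 26.1 and 27.5 RPKM in delta, 14.7, 16.7 and 21.2 in alpha and 9.46, 11.1, 11.7, 7.30 and 11.4 in beta libraries. It was higher than in beta cells by 1.34 in delta (SE 0.19, adjusted p = 0.000394) and by 0.75 in alpha cells (SE 0.17, adjusted p = 0.00443), the second not called without alpha replicate 3. Its delta over alpha change of 0.58 (adjusted p = 0.0491) was not called in 16 of 21 alternative fits. Sema4b (chr7:80186841-80226527, plus strand), first in beta cells, had 16.4 and 15.4 RPKM in delta, 8.41, 10.5 and 8.91 in alpha and 9.89, 12.4, 12.6, 10.2 and 11.9 in beta libraries. It was higher in delta than in alpha cells by 0.72 (SE 0.14, adjusted p = 0.00369) and than in beta cells by 0.45 (SE 0.13, adjusted p = 0.0187), and the change over beta was not called after median-ratio scaling or without either delta library. The change over alpha was not called without delta replicate 1.

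Sema4g (chr19:44989101-45003397, plus strand) had 7.26 and 5.58 RPKM in delta, 1.20, 1.16 and 2.33 in alpha and 0.337, 0.257, 0.537, 0.420 and 0.505 in beta libraries. Its 3 cell types did not overlap, and delta over beta was 2.40 (SE 0.18, adjusted p = 8.42e-06) and delta over alpha 1.54 (SE 0.20, adjusted p = 0.000353). Sema4f (chr6:82911885-82939769, minus strand) was led by alpha cells. It had 1.71 and 1.61 RPKM in delta, 3.01, 2.74 and 2.86 in alpha and 0.129, 0.0653, 0.225, 0.189 and 0.187 in beta libraries. Alpha over beta was 1.73 (SE 0.09, adjusted p = 4.72e-07) and delta over beta 1.20 (SE 0.10, adjusted p = 1.17e-05).

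Sema6a and Sema6d encode membrane-bound ligands of A plexins. Sema6a (chr18:47235598-47368870, minus strand) had 3.61 and 2.98 RPKM in delta, 0.748, 1.07 and 0.757 in alpha and 0.188, 0.558, 0.261, 0.362 and 0.348 in beta libraries, and delta over beta was 1.68 (SE 0.14, adjusted p = 1.12e-05). Sema6d (chr2:124089969-124667770, plus strand) had 8.66 and 7.72 RPKM in delta, 4.99, 6.86 and 8.42 in alpha and 1.06, 1.53, 2.38, 1.74 and 3.21 in beta libraries. It was higher than in beta cells in delta (1.69, SE 0.26, adjusted p = 0.000672) and in alpha cells (1.45, SE 0.23, adjusted p = 0.000663), and its delta and alpha libraries overlapped. Sema4d, the ligand of plexin B1, averaged 11.8 ± 0.475 RPKM in delta, 9.43 ± 1.70 in alpha and 9.65 ± 0.901 in beta libraries and was called in no contrast. Sema4c, the ligand of plexin B2, averaged 4.33 ± 0.00915 RPKM in delta, 2.86 ± 0.289 in alpha and 2.11 ± 0.275 in beta libraries, and delta over beta was 0.78 (adjusted p = 0.000687). Sema6b averaged 2.63, 2.62 and 1.70 RPKM in the same order, and its delta over beta call (0.43, adjusted p = 0.0391) was lost in 11 of 21 alternative fits. Sema7a, a lipid-anchored semaphorin, had 0.181 and 0.460 RPKM in delta, 0.146 to 0.705 in alpha and 0.287 to 1.36 in beta libraries. The secreted semaphorins Sema3a, Sema3b, Sema3d, Sema3f and Sema3g, and Sema5a, Sema5b and Sema6c, stayed under 1 RPKM in every library.

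**Figure D3:**
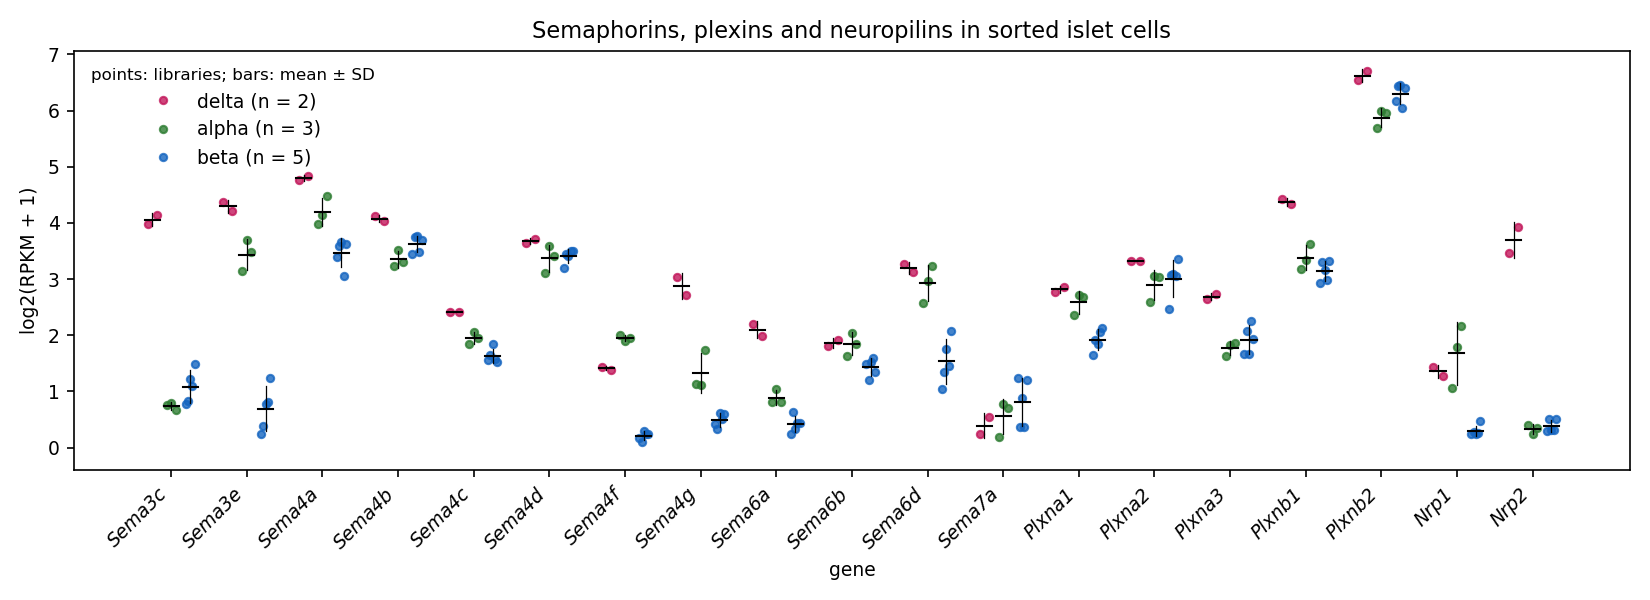
Levels of the semaphorin, plexin and neuropilin genes that were tested, as log2(RPKM + 1) per library (points), with the mean and SD of the delta (n = 2), alpha (n = 3) and beta (n = 5) libraries. Sema3c, Nrp2 and Sema4g are high in delta libraries, Sema3e is high in delta and alpha libraries, and Plxnb2 is the most abundant gene in all 3 cell types.

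Plexins are the signalling receptors of semaphorins. Plxnb2 (chr15:89155549-89180788, minus strand), whose protein binds Sema4C, was the most abundant of all 73 members in each cell type. It had 92.0 and 103 RPKM in delta, 50.5, 62.4 and 61.0 in alpha and 71.2, 86.0, 87.2, 65.1 and 83.2 in beta libraries. It made up 70.0% of the plexin sum in delta, 70.7% in alpha and 78.6% in beta cells. It was lower in alpha than in beta cells by -0.41 (SE 0.13, adjusted p = 0.0201), and higher in delta than in alpha cells by 0.74 (SE 0.15, adjusted p = 0.00486). Both calls were lost when the library total left out hormone reads. The first was also lost without alpha replicate 1, alpha replicate 3 or beta replicate 3, and the second with median-ratio scaling and without delta replicate 2.

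Plxnb1, the receptor of Sema4D, averaged 19.8 ± 1.02 RPKM in delta, 9.51 ± 1.66 in alpha and 7.87 ± 1.09 in beta libraries, and was higher in delta cells by 1.25 over beta (SE 0.14, adjusted p = 0.000101) and 0.97 over alpha (SE 0.15, adjusted p = 0.00112). Plxna3 was the other plexin higher in delta than in both other types, with 5.45 ± 0.294 RPKM in delta, 2.44 ± 0.281 in alpha and 2.82 ± 0.689 in beta libraries. Plxna2 was called in no contrast, with means of 9.00, 6.51 and 7.21 RPKM in delta, alpha and beta cells. Plxna1 averaged 6.08, 5.05 and 2.81 RPKM in that order and was higher than in beta cells in both other types. Plxna4 and Plxnb3 stayed under 1 RPKM, and Plxnc1 had 0.562 and 1.05 RPKM in delta, 0.0340 to 0.0925 in alpha and 0.0650 to 0.181 in beta libraries.

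Neuropilins are co-receptors for secreted semaphorins and for vascular endothelial growth factors, and the 2 genes differed in which sort held them. Nrp2 (chr1:62703285-62818695, plus strand) had 10.1 and 14.2 RPKM in delta libraries. It had 0.325, 0.182 and 0.268 RPKM in alpha and 0.225, 0.418, 0.243, 0.244 and 0.424 RPKM in beta libraries, which overlap each other. Delta over beta was 3.33 (SE 0.12, adjusted p = 8.76e-08) and delta over alpha 3.34 (SE 0.13, adjusted p = 3.75e-07). Its alpha mean was 2.13% of its delta mean and its beta mean 2.56%.

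Nrp1 (chr8:128358604-128503363, plus strand) had 1.72 and 1.43 RPKM in delta, 1.09, 2.48 and 3.51 in alpha and 0.180, 0.207, 0.181, 0.196 and 0.380 in beta libraries. Alpha over beta was 1.44 (SE 0.20, adjusted p = 0.000317) and delta over beta 1.09 (SE 0.23, adjusted p = 0.00371), and its alpha libraries spread widely around the delta values. The delta over beta call was lost without delta replicate 1. Endothelial cells carry Nrp1, and the endothelial marker Kdr had 0.0879, 0.674 and 0.873 RPKM in the same alpha libraries. Kdr was at 0.0726 and 0.316 RPKM in delta and at 0.368 to 0.993 RPKM in beta libraries, where Nrp1 was lowest. The sum of all 10 endothelial markers was 12.0 and 15.7 RPKM in delta, 8.14 to 11.3 in alpha and 6.48 to 12.6 in beta libraries, with none of them at 0 in all libraries of a type. In delta libraries Esam (7.10 and 8.02 RPKM) and Egfl7 (3.68 and 4.97 RPKM) made up most of that sum, and the other 8 stayed under 1 RPKM. The part of endothelial cells in the Nrp1 values was not tested.

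Plxdc1 and Plxdc2, plexin domain genes whose proteins are receptors of pigment epithelium-derived factor, were low. Plxdc2 (chr2:16356304-16755839, plus strand) had 0.947 and 1.05 RPKM in delta, 0.837, 0.870 and 0.924 in alpha and 0, 0.00589, 0.0324, 0.0310 and 0.0378 in beta libraries. It missed the filter by 1 library. In the fit without a filter it was higher in delta than in beta cells by 0.97 (SE 0.04, adjusted p = 5.75e-07). Plxdc1 stayed between 0 and 0.197 RPKM.

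Netrins are secreted or membrane-anchored guidance ligands related to laminins, and their sum was highest in alpha cells, with 4.18 ± 0.357 RPKM in delta, 11.8 ± 1.33 in alpha and 1.94 ± 0.369 in beta libraries. Ntn4 made up 93.8% of the alpha sum and was the only 1 of 6 netrin genes tested. Ntn4 (chr10:93640681-93747207, plus strand) encodes netrin-4, a secreted netrin of basement membranes. It had 1.93 and 1.85 RPKM in delta, 9.79, 12.1 and 11.4 in alpha and 0.237, 0.407, 0.771, 0.339 and 1.06 in beta libraries. The 3 cell types did not overlap. Alpha over beta was 2.99 (SE 0.18, adjusted p = 1.45e-06) and delta over alpha -2.07 (SE 0.22, adjusted p = 8.94e-05). The higher level in delta than in beta cells, 0.92 (SE 0.20, limma adjusted p = 0.00456), became 0.33 (adjusted p = 0.206) once the alpha transcripts implied by Gcg were subtracted from the delta libraries. The beta libraries were left unchanged, and the part of alpha cells in the delta values was not otherwise tested. Without delta replicate 1 the delta over beta change was 0.86 and not called.

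Ntn1, the netrin best known from commissural axons, had 0.345 and 0.629 RPKM in delta, 0.115 to 0.382 in alpha and 0.294 to 0.593 in beta libraries. Ntng2, a membrane-anchored netrin-G and the leading netrin gene of beta cells at 36.2% of the sum, had 0.559 and 0.669 RPKM in delta, 0.135, 0.268 and 0.130 in alpha and 0.883, 0.601, 0.605, 0.851 and 0.572 in beta libraries. Ntn3 and Ntng1 were under 1 RPKM everywhere but had more in delta libraries. Ntn3 had 0.616 and 0.901 RPKM there, against 0.222 to 0.232 in alpha and 0.184 to 0.281 in beta libraries, and exons of Tbc1d24 and BC028777 overlap it. Ntn5 had at most 0.0254 RPKM in any library.

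Netrin receptors were among the more abundant members, with a sum of 74.7 ± 1.33 RPKM in delta, 46.2 ± 4.31 in alpha and 45.7 ± 4.91 in beta libraries. The Unc5 receptors, which mediate repulsion from netrins, differed in the cell types where they were high. Neo1 and Unc5a were present at 14.0 RPKM or more in every library.

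Unc5c (chr3:141465216-141834924, plus strand) had 19.5 and 19.4 RPKM in delta, 2.87, 2.89 and 2.58 in alpha and 0.451, 0.898, 1.06, 0.681 and 1.42 in beta libraries. The 3 cell types did not overlap, and delta over beta was 3.45 (SE 0.18, adjusted p = 6.79e-07), delta over alpha 2.43 (SE 0.20, adjusted p = 1.79e-05) and alpha over beta 1.03 (SE 0.16, adjusted p = 0.000644). Its alpha mean was 14.3% of its delta mean, where that of Sst was 3.23%. The alpha over beta change stayed called with carry-over between sorts subtracted. The part of delta cells in the alpha values of Unc5c was not otherwise tested.

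Unc5b (chr10:60762593-60831581, minus strand) was low in alpha cells. It had 5.42 and 6.40 RPKM in delta, 0.327, 0.323 and 0.235 in alpha and 5.52, 5.65, 4.79, 9.60 and 5.12 in beta libraries. Alpha over beta was -2.38 (SE 0.18, adjusted p = 7.67e-06) and delta over alpha 2.39 (SE 0.23, adjusted p = 4.60e-05), while delta over beta was 0.00 (SE 0.21, adjusted p = 0.991). Unc5d had 1.08 and 2.31 RPKM in delta, 0.0622 to 0.130 in alpha and 0.0207 to 0.171 in beta libraries. Unc5a averaged 23.1 ± 0.444 RPKM in delta, 16.2 ± 1.06 in alpha and 15.5 ± 0.999 in beta libraries, and was higher in delta than in beta cells by 0.55 (SE 0.10, adjusted p = 0.00156).

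Neo1 (chr9:58874687-59036441, minus strand) encodes neogenin, a receptor of netrins and of repulsive guidance molecules. It had 24.4 and 24.7 RPKM in delta, 23.0, 29.4 and 28.2 in alpha and 18.3, 22.3, 23.1, 25.6 and 25.6 in beta libraries. The cell types overlapped and no contrast was called, with delta over beta at 0.12 (SE 0.13, adjusted p = 0.46). After median-ratio scaling it was lower in delta than in alpha cells. Dcc, the classical netrin receptor of attraction, had 0 and 5 reads in delta, 3, 4 and 3 reads in alpha and no read in the beta libraries. Over the 10 libraries 3 reads of this gene stand for 0.011 to 0.0176 RPKM.

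**Figure D4:**
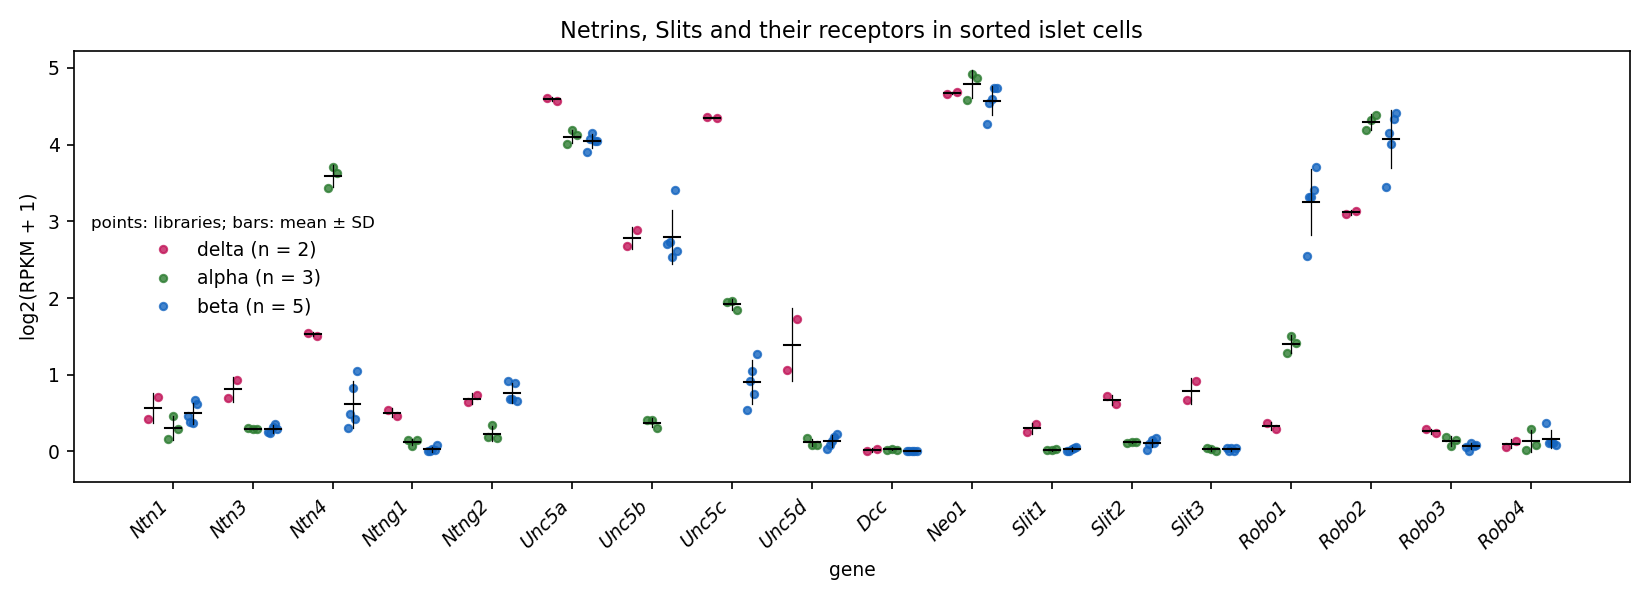
Levels of netrin, netrin receptor, Slit and Robo genes, as log2(RPKM + 1) per library (points), with the mean and SD of the delta (n = 2), alpha (n = 3) and beta (n = 5) libraries. Unc5c is high in delta libraries, Ntn4 in alpha libraries and Robo1 in beta libraries, and Unc5b is low in alpha libraries.

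Slits are secreted ligands of Robo receptors. The 3 Slit genes stayed under 1 RPKM in every library and were not tested. Their summed level was 1.57 ± 0.192 RPKM in delta, 0.122 ± 0.00523 in alpha and 0.122 ± 0.0596 in beta libraries. Slit3 had 0.594 and 0.884 RPKM in delta, 0.0360, 0.0237 and 0 in alpha and 0.0305, 0, 0.0338, 0.00861 and 0.0300 in beta libraries. Slit2 had 0.648 and 0.541 RPKM in delta, 0.0770, 0.0900 and 0.0938 in alpha and 0.0178, 0.0670, 0.105, 0.0755 and 0.127 in beta libraries. These Slit2 levels stand for 112 and 86 reads in delta and 4 to 29 reads in the other libraries. In the fit without a filter, log2 fold changes of delta over beta were 0.77 for Slit3 (adjusted p = 1.98e-05), 0.56 for Slit2 (adjusted p = 3.1e-05) and 0.27 for Slit1 (adjusted p = 7.4e-05). In that fit, of the 34 members under the filter, 15 were called higher and 1 lower in delta over beta, where 27.4% and 10.2% of all genes were. In alpha over beta 6 were higher and 2 lower (19.0% and 22.2% of all genes), and in delta over alpha 13 and 1 (23.0% and 5.15%). These shares include the genes that passed the filter, so they are not matched to members this low.

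Robo receptors had their lowest summed level in delta cells, with 8.20 ± 0.143 RPKM in delta, 20.6 ± 1.59 in alpha and 25.3 ± 6.51 in beta libraries, and alpha and beta sums overlapped. Robo1 (chr16:72308306-73046095, plus strand) had 0.294 and 0.228 RPKM in delta, 1.43, 1.84 and 1.66 in alpha and 4.84, 8.96, 8.96, 9.59 and 12.1 in beta libraries. The 3 cell types did not overlap, and the delta mean was 2.94% of the beta mean and the alpha mean 18.5%. Delta over beta was -2.90 (SE 0.23, adjusted p = 1.12e-05), alpha over beta -1.79 (SE 0.21, adjusted p = 0.000103) and delta over alpha -1.11 (SE 0.26, adjusted p = 0.00816). The last was not called without delta replicate 2.

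Robo2 (chr16:73891839-74411825, minus strand) had 7.55 and 7.79 RPKM in delta, 17.2, 19.0 and 20.0 in alpha and 9.95, 16.8, 15.1, 19.1 and 20.3 in beta libraries. Delta libraries were below all others, with -0.92 (SE 0.18, adjusted p = 0.00253) over beta, not called without delta replicate 2, and -1.24 (SE 0.19, adjusted p = 0.000977) over alpha. Alpha and beta libraries overlapped (0.32, adjusted p = 0.115). Beta replicate 1, which had the lowest levels of Robo1 and Robo2 among beta libraries, also had the highest share of hormone reads, 31.8%. A link between that share and these levels was not tested. Robo3 and Robo4, the second a gene of endothelial cells, stayed under 1 RPKM.

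Over the 10 libraries, the members whose log2(RPKM + 1) followed that of Efnb3 most closely were Unc5c (Pearson r = 0.987), Epha1 (0.973) and Nrp2 (0.969). Among all genes tested the closest were Gyk, Tmie and Dgkb (0.998), Dpp6 (0.997) and Lphn2 (0.996). The points of these correlations share the contrast between 2 delta libraries and the rest, and the values are given as a description. Dpp6, which encodes a potassium channel subunit, averaged 52.8 RPKM in delta, 2.16 in alpha and 0.353 in beta libraries.

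Sex was compared in the same fit. By limma, 0 of the 39 members were called in either direction, with 2 at an unadjusted p under 0.05 (Plxna3 and Robo2) and a smallest adjusted p of 0.77. Limma-voom on the recovered reads also called 0, with 5 at an unadjusted p under 0.05. Of all genes tested, 0.0157% were higher and 0.0315% lower in female libraries. Delta cells had 1 library of each sex and alpha cells 1 female library, which limits what this comparison can show.

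Around these families, a list of 24 co-receptors, ligands and processing enzymes and a list of 52 intracellular effectors were examined. Of the partners 14 were tested. In delta over beta 7 were called higher and 1 lower, where 37.4% and 13.3% of all tested genes were. In alpha over beta it was 4 and 2 (23.7% and 30.3% of all genes), and in delta over alpha 6 and 3 (32.1% and 5.89%). At 14 genes these shares say little about the list, and the genes below are given for their own values. Dscam, a cell adhesion molecule that can act as a netrin receptor, averaged 15.1 RPKM in delta, 0.617 in alpha and 0.0931 in beta libraries (delta over beta 3.89, SE 0.10, adjusted p = 2.99e-08). Lingo1, part of the receptor complex for myelin inhibitors, averaged 30.8, 1.31 and 1.51 RPKM in the same order (delta over beta 3.67, SE 0.16, adjusted p = 2.13e-07). Nrcam, an adhesion molecule that joins neuropilin 2 in semaphorin reception, was lower in delta cells, at 0.395 RPKM against 7.26 in alpha and 7.35 in beta libraries (delta over beta -2.48, SE 0.27, adjusted p = 7.53e-05). Flrt1, whose product can bind Unc5 receptors, averaged 7.24 RPKM in delta, 0.832 in alpha and 4.37 in beta libraries (alpha over beta -1.52, SE 0.13, adjusted p = 1.31e-05).

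Of the effectors 48 were tested. In delta over beta 25 were called higher and 3 lower, where 37.4% and 13.3% of all tested genes were. In alpha over beta it was 12 and 9 (23.7% and 30.3% of all genes), and in delta over alpha 17 and 2 (32.1% and 5.89%). The shares in delta over alpha are near those of all genes. Their median log2 fold change of delta over beta was 0.40, beside 0.25 over all genes. Pak3 and Pak1, kinases activated by Rac and Cdc42, had the largest rises. Pak3 averaged 49.1 RPKM in delta, 36.3 in alpha and 7.05 in beta libraries (delta over beta 2.76, SE 0.30, adjusted p = 8.04e-05). Pak1 averaged 18.7 RPKM in delta, 1.05 in alpha and 3.11 in beta libraries (delta over beta 2.29, SE 0.18, adjusted p = 8.69e-06). Grip1 and Rgs3, which bind the intracellular tail of B ephrins, were lower in delta cells than in beta cells, by -0.84 (SE 0.18, adjusted p = 0.00462) and -0.76 (SE 0.15, adjusted p = 0.00292). Grip1 averaged 1.20 RPKM in delta, 1.34 in alpha and 3.07 in beta libraries, and Rgs3 averaged 3.46, 1.84 and 6.73 in the same order.

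Several guidance genes are also expressed by nerves, vessels and stroma, so markers of other cells were read in the same libraries. Sox10, which defines Schwann cells, was at 0 to 0.0211 RPKM over the 10 libraries, and Gfap was at 0 in all delta and alpha libraries. Erbb3, which Schwann cells also express, had 1.92 and 2.24 RPKM in delta, 1.92, 1.96 and 2.60 in alpha and 0.636 to 1.48 in beta libraries. The sum of 10 stellate and mesenchymal markers was 1.08 and 1.44 RPKM in delta, 3.63 to 4.48 in alpha and 0.305 to 1.68 in beta libraries. The sum of 10 immune markers was 75.8 and 88.9 RPKM in delta, 23.0 to 41.5 in alpha and 107 to 200.1 in beta libraries. In delta libraries C1qa (57.7 and 73.5 RPKM) and Cd68 (14.5 and 11.2 RPKM) made up most of that sum. Ptprc, the pan-leukocyte marker, was at 0.00873 and 0 RPKM in delta, 0 to 0.0101 in alpha and 0.202 to 0.484 in beta libraries, and Emr1 and Lyz2 were at 0 in both delta libraries. Acinar markers, 9 of 10 of them listed, summed to 679.9 and 880.1 RPKM in delta, 90.2 to 3294 in alpha and 212 to 10503 in beta libraries. The sum of 7 ductal markers was 344 and 414 RPKM in delta, 843 to 1951 in alpha and 548 to 715 in beta libraries. Krt7 and Spp1 carried that sum in every library. The ductal markers Sox9 and Cftr were highest in delta libraries, Sox9 at 2.97 and 4.04 RPKM against at most 0.235 elsewhere, and Cftr at 0.298 and 0.282 RPKM against at most 0.0357. Ppy and Pyy, the 2 pancreatic polypeptide markers, summed to 44164 and 44798 RPKM in delta libraries. Their sum was 9597 to 15241 RPKM in alpha and 808 to 1559.7 RPKM in beta libraries. The part of any of these other cells in the levels of the members was not tested.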

How the data were processed

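A single table of RPKM was deposited by the authors, 19213 rows by 10 library columns, and every column was used. The submitters' processing notes name STAR 2.4, edgeR 3.12.0, featureCounts and the build GRCm38.p3. The annotation they counted over and the treatment of reads shared by related genes: not given in the sources used here. RPKM are shares of a library, so abundant transcripts lower all others. Per the labels' protocols, RNA was kept in Trizol and libraries were made with a TruSeq kit that does not mark the strand. The titles of alpha replicates 1 and 2, and of beta replicates 4 and 5, share a number, and other libraries have neighbouring numbers; their meaning is not given.

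After adding 1 to each RPKM and taking log2, a linear model of cell type and sex was fitted to all 10 libraries at once (limma 3.58.1, R 4.3.3, with the variance trend; 6 residual and, at the median, 3.16 prior degrees of freedom). The 12700 genes that reached 1 RPKM in 2 or more libraries were tested, with Benjamini-Hochberg adjustment over them and calls under 0.05. Read totals were recovered from the steps of the values, to within 0.021 of a whole number; the recovered reads served an added limma-voom fit.

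The members follow from the symbol rule. They, the lists of partners and effectors and the marker lists were chosen with earlier results of these data known. Named with every value are Efnb3, called members whose log2 fold change was 1.5 or more in size, and the leading member of each family in each cell type, and up to 2 others of a family by means or ranges; Epha4, Epha5 and further low members were named after their values were seen. Carry-over between sorts was subtracted by scaling the alpha mean by Gcg in delta libraries and the delta mean by Sst in alpha libraries. Gene coordinates are from GENCODE M21 and promoters from RefSeq, both on GRCm38. Of the Schwann cell markers, 2, and so their sum, are not reported here.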

Additional observations from a re-analysis of the deposited data

Results flagged for a closer look

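The beta libraries, 5 in number, were searched for members with a single library far from the other 4. In the 39 tested members, 3 had such a library, and chance marks about 1 in 20 groups. Nrp1 had 0.380 RPKM in beta replicate 5, against 0.180 to 0.207 in the other beta libraries. Epha2 had 0.410 RPKM in the same library, against 0.252 to 0.281 in the others. That library also had the highest Sst (922 RPKM) and Gcg (2852 RPKM) of the beta libraries. Unc5b, the netrin receptor that was low in alpha cells, had 9.60 RPKM in beta replicate 4, against 4.79 to 5.65 in the other beta libraries.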

How the results depend on the processing

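Of the members called, 24 of 32 in delta over beta, 17 of 22 in alpha over beta and 17 of 30 in delta over alpha were called under every alternative in which they were tested. No called change turned its sign other than that of Efnb3 in alpha over beta, which was -0.033 with carry-over subtracted. Members lower in alpha than in beta cells, 3 as reported, numbered 5 with no filter on low values, 5 with median-ratio scaling and 9 with carry-over subtracted, which lowers alpha values by construction. Members higher in delta than in alpha cells, 23 as reported, numbered 14 with median-ratio scaling. Leaving out each library in turn gave 18 to 29 members higher and 1 to 3 lower in delta over beta, 15 to 20 higher and 2 to 5 lower in alpha over beta, and 12 to 23 higher and 4 to 8 lower in delta over alpha. With a delta library left out, the lone one is assumed to vary like the other groups. Shares of all genes called were not counted for these fits or for the limma-voom and block fits below. Those counts thus describe the members alone. Limma-voom on recovered reads, chosen after seeing the data, gave 29 and 3, 19 and 3, and 21 and 6. No member was called for sex under any alternative. A replicate block of the 4 pairs of YFP and mCherry libraries with neighbouring title numbers, also chosen after seeing the data, gave 32 and 3, 19 and 7, and 23 and 7 (limma, estimated correlation within pairs 0.432), and no call was lost under this block; whether these numbers mark shared islets is not given. Depth limits the members with few reads: Ephb1 had 2, Epha3 11 and Dcc 15 reads over all 10 libraries. Without a filter Epha3 was called higher over beta cells in delta (0.05, adjusted p = 0.0268) and alpha cells (0.04, adjusted p = 0.0216), a call that rests on those 11 reads.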
